A study of Mus musculus with 6 samples.

Results

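The interferon regulatory factors (IRFs) are a family of transcription factors, and 8 of their genes, Irf1, Irf2, Irf3, Irf4, Irf5, Irf7, Irf8 and Irf9, were chosen by name and followed in type 1 conventional dendritic cells (cDC1s) of mice with floxed c-Jun and JunB alleles, without and with Cre. They were 8 of the 54532 genes listed for each library, and all 8 passed the filter on low counts.

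All IRFs share a DNA-binding domain that recognises GAAA repeats, as found in the interferon-stimulated response element (ISRE). IRF3, IRF5 and IRF7 are switched on by kinases below Toll-like receptors and sensors of cytosolic nucleic acid and drive type I interferon genes, IRF9 joins STAT2 in the complex that relays the interferon signal, and IRF1 and IRF2 act as an activator and its antagonist at the same elements. IRF4 and IRF8 bind DNA poorly alone and pair with PU.1, SPIB or with BATF and JUN proteins at composite elements known as AICE, and in dendritic cells IRF8 is required for cDC1s, whereas IRF4 is tied to cDC2s.

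The cells were sorted cDC1s (CD24+ CD11c+, without B220, CD115 and CD172a) from mouse bone marrow that had been cultured with 80 ng/mL FLT3L, a cytokine that drives dendritic cell development, until day 8. RNA was measured in 3 libraries from c-Jun/JunB fl/fl mice (labelled WT, hereafter WT 1, 2 and 3) and 3 libraries of mice that carried the same floxed alleles and Itgax-Cre (labelled KO, c-Jun/JunB Δ/Δ in the series title, hereafter KO 1, 2 and 3). Both groups shared the floxed alleles and the culture, and only the second carried Cre, which is driven by the Itgax (CD11c) promoter. No library carried Cre without the floxed alleles. The mice were adults of both sexes on a mixed background according to the study's methods, and a legend to its expression plots counts the RNA-Seq samples by individual mice. The age and sex behind each library are not given in the sources used here.

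Between 21693217 and 26788296 reads per library lay on genes. Levels are given as CPM, reads scaled to library size by edgeR's TMM factors. The test between genotypes was edgeR's quasi-likelihood test, which a gene passed at an adjusted p under 0.05 (Benjamini-Hochberg over 12894 tested genes). Of the deleted genes, Jun had 70.9, 52.5 and 63.1 CPM in WT 1, 2 and 3 and 48.2, 44.3 and 60.5 CPM in KO 1, 2 and 3, and Junb had 315, 274 and 413 CPM against 110.4, 171 and 212 CPM. The genotypes overlapped for Jun and did not for Junb, and neither passed (edgeR adjusted p of 0.345 and 0.0729). Which part of each gene is removed by Cre is not given in the sources at hand, and reads on the whole gene are no full check of the deletion. The study states that quantitative PCR of RNA showed the deletion in cDC1s sorted from spleen and lymph nodes. It also lists such PCR of both genes in cDC1s from FLT3L cultures. The directions below are those of the libraries as labelled. The KO libraries differed more from each other (chi-square per degree of freedom of 27.9 to 38.5 over genes) than the WT libraries (6.35 to 10.4), and KO 2 stood apart in mature dendritic cell genes, so values that rest on it are given with and without it. The cDC1 markers Xcr1, Clec9a and Batf3 were present in each library at 122 CPM or more, 203 CPM or more and 45.2 CPM or more.

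RefSeq promoter windows (GRCm38.p6, 250 bases before to 50 bases after a start) were found for all 8 IRF genes, with 11 windows in all. They were searched on both strands for an ISRE-like motif (GAAANNGAAA), a GAS motif (TTCNNNGAA, the element bound by STAT dimers), the AP-1 motif (TGANTCA) and AICE, taken as GAAA next to TGANTCA in either order with none or 4 bases between them. Of all 32851 windows of the same length, 3.44% held the ISRE-like motif, 8.30% the GAS motif, 7.81% the AP-1 motif and 0.517% AICE. AICE matches contain an AP-1 match. Only 3 IRF genes held any match. The first windows of Irf1 and Irf8 are shown because they hold GAS matches, that of Irf2 because it holds both a GAS and the only ISRE-like match, and those of Irf4 and Irf7 because these 2 genes carried the differences between genotypes. Capitals mark the matches. No AP-1 or AICE match lay in any of the 11 windows, which says only that these letters are not there. The regions are chr11:53769764-53770063, plus strand for Irf1, chr8:46739495-46739794, plus strand for Irf2, chr8:120736108-120736407, plus strand for Irf8, chr13:30748983-30749282, plus strand for Irf4 and chr7:141266375-141266674, minus strand for Irf7.
Irf1: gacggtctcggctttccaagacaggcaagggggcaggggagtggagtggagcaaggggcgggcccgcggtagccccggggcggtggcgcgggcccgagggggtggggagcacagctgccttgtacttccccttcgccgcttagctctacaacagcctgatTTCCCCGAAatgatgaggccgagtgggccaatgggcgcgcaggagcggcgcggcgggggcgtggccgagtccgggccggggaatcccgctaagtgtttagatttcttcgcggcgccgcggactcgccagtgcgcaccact
Irf2: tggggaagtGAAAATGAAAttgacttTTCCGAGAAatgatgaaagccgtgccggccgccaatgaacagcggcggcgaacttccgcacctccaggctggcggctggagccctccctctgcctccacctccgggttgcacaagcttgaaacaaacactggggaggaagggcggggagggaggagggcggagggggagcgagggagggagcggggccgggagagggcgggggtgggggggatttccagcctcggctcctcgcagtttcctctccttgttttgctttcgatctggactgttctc
Irf8: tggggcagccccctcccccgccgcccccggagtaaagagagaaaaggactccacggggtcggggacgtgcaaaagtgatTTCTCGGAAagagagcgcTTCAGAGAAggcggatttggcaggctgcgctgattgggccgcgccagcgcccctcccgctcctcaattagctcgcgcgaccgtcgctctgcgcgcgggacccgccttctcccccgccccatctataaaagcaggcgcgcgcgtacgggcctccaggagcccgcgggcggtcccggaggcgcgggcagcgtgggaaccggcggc
Irf4: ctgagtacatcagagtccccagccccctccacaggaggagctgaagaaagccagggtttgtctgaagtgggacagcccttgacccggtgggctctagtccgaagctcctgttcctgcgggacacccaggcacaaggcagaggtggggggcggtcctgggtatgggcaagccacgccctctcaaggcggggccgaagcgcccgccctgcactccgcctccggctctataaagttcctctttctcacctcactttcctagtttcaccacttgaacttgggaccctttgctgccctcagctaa
Irf7: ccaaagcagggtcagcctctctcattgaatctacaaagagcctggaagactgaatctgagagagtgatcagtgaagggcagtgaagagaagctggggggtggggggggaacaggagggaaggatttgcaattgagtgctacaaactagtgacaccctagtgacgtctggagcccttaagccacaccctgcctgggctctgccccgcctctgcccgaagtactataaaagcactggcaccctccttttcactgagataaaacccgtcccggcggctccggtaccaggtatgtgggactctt

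With the annotated start counted as 0, the GAS match of Irf1 (TTCCCCGAA) began at −90, and those of Irf8 (TTCTCGGAA and TTCAGAGAA) began at −171 and −153. In Irf2, the ISRE-like match (GAAAATGAAA) began at −241 and the GAS match (TTCCGAGAA) at −224. GAS elements are known from genes that answer interferon gamma.

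In these cDC1s, Irf7 was lower and Irf4 higher in KO than in WT libraries, with no overlap between genotypes, and the other 6 IRF genes overlapped. Only Irf7 passed the test (1 of 8 lower, 0 of 8 higher). Among all tested genes 3.88% passed, with 2.03% higher and 1.85% lower in KO, and with an added limit of 1 on the log2 fold change 1.86% passed, again with Irf7 as the only IRF gene. The genotypes did not overlap for 2 of 8 IRF genes, near the 26.0% of all tested genes, and 3 of 8 (Irf4, Irf7 and Irf9) had an unadjusted p under 0.05, against 19.4% of all genes. By DESeq2, 2 of 8 passed, Irf7 and Irf4. DESeq2 also passed more genes in all, 1101 against 500 by edgeR, out of 23037 with reads, 8300 of which had no adjusted p. The median log2 fold change of the 8 genes was 0.08 (−0.07 without KO 2), and that of all tested genes was 0.00.

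**Figure D1:**
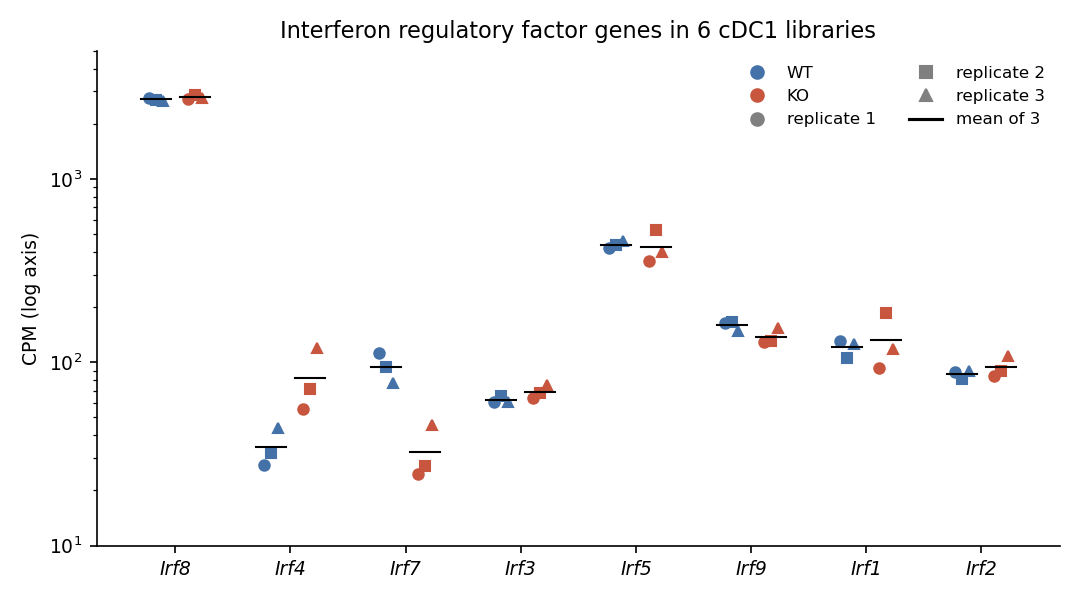
CPM of the 8 IRF genes on a log axis, with 1 point per library (blue WT, red KO, marker shape by replicate number) and a bar at the mean of 3 libraries. Irf8 lay between 2653 and 2879 CPM in all 6 libraries, whereas the Irf4 and Irf7 points of the genotypes separated in opposite directions.

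Irf8, the factor on which cDC1 development depends, was by far the most abundant of the family. The gene (ENSMUSG00000041515.10) lies on chromosome 8, 120736358 to 120756694, plus strand. It had 2773, 2709 and 2653 CPM in WT 1, 2 and 3 and 2729, 2879 and 2776 CPM in KO 1, 2 and 3. All 6 libraries were alike and the genotypes overlapped. The log2 fold change was 0.04 ± 0.05 (SE, n = 3 per genotype), with a 95% interval from −0.08 to 0.16 and an edgeR adjusted p of 0.687. It had the smallest spread of the 8 genes, with a coefficient of variation of 2.22% in WT and 2.74% in KO. Over the alternative analyses its log2 fold change stayed between 0.02 and 0.06.

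Irf4, the factor tied to cDC2s and to plasma cells, was the scarcest IRF gene in WT cDC1s per length. The gene (ENSMUSG00000021356.10) lies on chromosome 13, 30749226 to 30766976, plus strand, and overlaps no other annotated gene. It had 27.4, 32.1 and 43.9 CPM in WT 1, 2 and 3, from 711, 866 and 1036 reads. In KO 1, 2 and 3 it had 55.6, 71.9 and 120.1 CPM, from 1371, 1540 and 2727 reads. Each KO library lay above each WT library, with KO 3 far above the others. The means were 34.5 ± 8.52 CPM and 82.5 ± 33.5 CPM (SD, n = 3 each), a log2 fold change of 1.26 ± 0.30 (SE) with a 95% interval from 0.55 to 1.96. The edgeR adjusted p was 0.0699 (unadjusted 0.00383), so that Irf4 did not pass. It passed by DESeq2 (adjusted p = 0.0237), with no filter on low counts (0.0152 by edgeR) and without KO 1 (0.0150 by edgeR), and its adjusted p over all alternatives ran from 0.00951 to 0.270. With 1 library left out the log2 fold change was 0.89 to 1.48.

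The order of the 6 libraries by Irf4 was also their order by summed cDC2 genes. The 14 genes of this list (which includes Klf4, Ccr2 and the lectin Cd209a) summed to 1367, 1593 and 1775 CPM in WT 1, 2 and 3 and to 2411, 2665 and 2934 CPM in KO 1, 2 and 3. All 14 were tested and 5 passed, all of them higher in KO, namely Cd209a (log2 fold change 2.25 ± 0.25), Cd4 (2.300 ± 0.43), Klf4 (0.97 ± 0.18), Ehf (1.63 ± 0.29) and Ccr2 (0.96 ± 0.13, each ± SE). With a library left out 1 to 5 of the 14 passed, the fewest without WT 2 (1), WT 1 or KO 3 (2 each), and the median of the list, 0.82, was 0.50 without KO 3. From the same data the study had already named Irf4, Klf4 and Ehf as increased. The count of cDC2 genes is thus a description and no independent support. Sirpa, which encodes the CD172a used to exclude cDC2s in the sort, had 40.9 to 60.5 CPM and overlapped between genotypes (log2 fold change −0.21, edgeR adjusted p = 0.430). No gene of the list was at 0 in any library. In bulk samples such as these, more cells of a type and more RNA per cell cannot be told apart, and the part of cDC2 transcripts in the Irf4 difference was not tested. Plasma cell markers, of which 0 of 5 tested passed by edgeR or by DESeq2 and 2 had an unadjusted p under 0.05, summed to 554 to 574 CPM in WT and 465 to 592 CPM in KO libraries. Prdm1 among them had 4.01, 4.71 and 5.13 CPM against 5.27, 8.40 and 11.5 CPM (edgeR adjusted p = 0.165).

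The balance between Irf4 and Irf8 was read within each library, where library size plays no part. In WT 1, 2 and 3 there were 0.989, 1.19 and 1.66 Irf4 reads per 100 Irf8 reads, and in KO 1, 2 and 3 there were 2.04, 2.50 and 4.33. The lowest KO library lay above the highest WT library, and the exact binomial 95% intervals of these 2 (1.93 to 2.15 and 1.56 to 1.76, counting error only) did not meet. The means were 1.28 ± 0.343 and 2.95 ± 1.21 (SD, n = 3 each). On the log2 scale the ratio differed by 1.17 between genotypes, or 2.25-fold, with an exact two-sided permutation p of 0.1, which is the smallest that 3 against 3 libraries can give. Even in KO 3 Irf8 had 23.1 reads for each Irf4 read, compared with 101 in WT 1. Without KO 3 the log2 difference was 0.85, and over each library left out in turn it was 0.85 to 1.40.

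**Figure D2:**
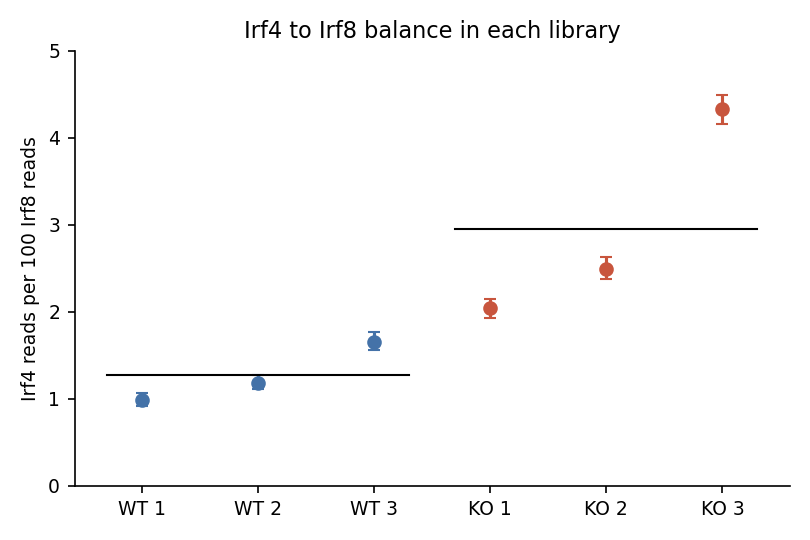
Irf4 reads per 100 Irf8 reads in each library (points, with exact binomial 95% intervals for counting error) and the mean of 3 libraries per genotype (bars). The WT libraries lay at 0.989 to 1.66 and the KO libraries at 2.04 to 4.33.

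Among genes with a mean of at least 1 CPM (11599 compared), those whose log2 CPM followed Irf4 most closely over the 6 libraries were Atp6v0b (Pearson r = 0.999), Tnfrsf13b (0.997) and Gm43380 (0.996). After the genotype means were subtracted they were Sgk1 (0.998), Atp6v0b (0.997) and Prkce (0.997). The genes closest to Irf8 were Mob3a (0.992), Gm44974 (0.976) and Phrf1 (0.973) over the 6 libraries, and Mob3a (0.997), Nae1 (0.997) and Yipf4 (0.989) within genotype. These coefficients describe 6 libraries in 2 genotypes and are the highest of many, so that no p is attached to them.

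Irf7, the factor that amplifies interferon alpha production and is itself interferon-inducible, had the largest fold change of the 8 genes. The gene (ENSMUSG00000025498.15) lies on chromosome 7, 141262706 to 141266481, minus strand, and shares 45 exon bases with Phrf1 on the other strand. It had 113, 94.0 and 77.1 CPM in WT 1, 2 and 3, from 2921, 2534 and 1817 reads. In KO 1, 2 and 3 it had 24.6, 27.3 and 45.3 CPM, from 607, 586 and 1029 reads. The highest KO library lay below the lowest WT library. The means were 94.6 ± 17.8 CPM and 32.4 ± 11.2 CPM (SD, n = 3 each), and Irf7 fell by 1.54 ± 0.25 (SE) on the log2 scale, 2.92-fold, with a 95% interval from −2.13 to −0.96 and an edgeR adjusted p of 0.0209. The call was lost without WT 1 (edgeR adjusted p = 0.110) and without WT 2 (0.105), where the log2 fold change was −1.40 and −1.55. It was also lost with the replicate number as a block (0.0508), under which Irf4 passed in place of Irf7, and the adjusted p over all alternatives ran from 1.8e-10 (DESeq2) to 0.110. Phrf1 had 97.5 ± 3.93 CPM in WT and 103 ± 6.89 CPM in KO libraries.

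Among 30 interferon-stimulated genes, the usual targets of IRF7 and IRF9, 29 were tested, 14 passed lower and 1 passed higher. The lower calls numbered 20 by DESeq2, 9 with the replicate block and without WT 3, and 3 without WT 1 and without WT 2, with the 1 higher call in each case. Their median log2 fold change was −1.05, against 0.00 over all tested genes. The 3 with the smallest p were Nmi, which binds STAT proteins (19.8 to 23.8 CPM in WT against 6.16 to 7.34 CPM in KO), the antiviral GTPase gene Mx1 (147 to 165 against 83.6 to 99.2 CPM) and Oas2, an oligoadenylate synthetase (4.84 to 8.71 against 0.653 to 1.18 CPM). They fell by 1.70 ± 0.13, 0.82 ± 0.09 and 2.76 ± 0.33 on the log2 scale (SE). The summed list was 1592, 1516 and 1309 CPM in WT 1, 2 and 3, the order of Irf7 in these libraries, and 1093, 1023 and 1092 CPM in KO 1, 2 and 3, where Irf7 was highest in KO 3. Without Ifi44l, the KO library with the highest sum was KO 3 too (1049 CPM). KO 2 had a lower sum than KO 1 with and without Ifi44l, whereas its Irf7 level was higher (27.3 against 24.6 CPM). The gene that passed higher was Ifi44l, with 0 reads in each WT library and 75.8, 44.9 and 43.3 CPM in KO 1, 2 and 3, at least 1394-fold higher when WT is set to 3 reads over its 3 libraries. With Ifi44l at this bound the median of the list stayed at −1.05. The list was known from earlier results of these data to be lower in KO libraries, so that its count is a description beside Irf7 and no independent support.

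None of the 20 interferon genes looked up (Ifnb1, the genes of the Ifna cluster with an entry, Ifne, Ifnk, Ifnl2, Ifnl3 and Ifng) had a read in any library, which for a gene allows up to 0.112 to 0.138 CPM per library (3 reads, counting error only). Reads that fit several Ifna genes equally were not counted, so that this limit does not hold for reads shared within the cluster.

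Irf3, the constitutive partner of Irf7 in the first wave of interferon, had 60.7, 65.2 and 60.8 CPM in WT 1, 2 and 3 and 64.0, 67.9 and 74.8 CPM in KO 1, 2 and 3. The genotypes overlapped, and the log2 fold change was 0.15 ± 0.08 (SE, edgeR adjusted p = 0.345) with a 95% interval from −0.03 to 0.32. The gene lies on chromosome 7, 44997648 to 45002848, plus strand, and shares 88 exon bases with Bcl2l12 on the other strand.

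Irf5, which acts below MyD88 in inflammatory cytokine induction, was the second most abundant IRF gene. It lies on chromosome 6, 29526625 to 29541871, plus strand, and shares 411 exon bases with Tnpo3 on the other strand. It had 417, 438 and 457 CPM in WT 1, 2 and 3 and 358, 526 and 399 CPM in KO 1, 2 and 3. The KO libraries lay on both sides of the WT range, and the log2 fold change was −0.03 ± 0.14 (SE, edgeR adjusted p = 0.922), turning to 0.08 without KO 1 and to 0.01 without KO 3.

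Of 29 genes for the sensors, adaptors and kinases that activate IRF3, IRF5 and IRF7, 27 were tested, 3 passed lower and 0 higher. By unadjusted p under 0.05 there were 12, and DESeq2 called 4 lower and 2 higher. None passed without WT 1 or without WT 2, 1 passed lower without WT 3, and 4 passed lower and 5 higher without KO 1. The 3 were sensors of double-stranded or viral RNA, namely Tlr3 (456, 469 and 483 CPM in WT 1, 2 and 3 against 300.2, 220 and 308 CPM in KO 1, 2 and 3), Ddx58, which encodes RIG-I (6.25, 6.19 and 4.88 against 1.54, 2.43 and 2.86 CPM) and Dhx58, which encodes LGP2 (105, 102 and 85.3 against 62.3, 55.5 and 66.3 CPM). They fell by 0.77 ± 0.13, 1.34 ± 0.27 and 0.67 ± 0.10 on the log2 scale (SE, edgeR adjusted p of 0.0226, 0.0414 and 0.0187). Tlr3 is also on the cDC1 list. The other 24 tested genes, among them the adaptors Mavs (log2 fold change 0.01) and Myd88 (0.28) and the kinase Tbk1 (−0.04), did not pass. Within these 24, Slc15a4 (log2 fold change 0.42), Irak2 (0.41), Tmem173 (0.30) and Traf3 (0.29) were higher in each KO than in each WT library. Ifih1 (−0.59), Irak4 (−0.20) and Chuk (−0.11) were lower without overlap. Among all tested genes 26.0% separated in either direction. Tlr8 and Ikbke were under the filter on low counts. Of 8 genes for IRF co-repressors and feedback, 2 passed, both lower and both interferon-inducible. These were Usp18, a brake on interferon receptor signalling (56.3, 51.2 and 34.7 against 19.2, 15.4 and 21.6 CPM), and Trim21, a ubiquitin ligase that acts on IRFs (45.4, 44.0 and 43.8 against 35.5, 30.7 and 34.4 CPM). Of the 8, 0 passed without WT 1 or without WT 2, 1 without WT 3 or KO 3 and 4 without KO 1 (2 of them higher).

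Irf9 supplies the DNA-binding part of the complex with STAT2. It had 164, 165 and 148 CPM in WT 1, 2 and 3 and 129, 130.2 and 154 CPM in KO 1, 2 and 3. Of the KO libraries, 2 lay below all WT libraries, and KO 3 within their range. The log2 fold change was −0.21 ± 0.09 (SE) with a 95% interval from −0.41 to −0.01 and an edgeR adjusted p of 0.2495 (unadjusted 0.0456). The gene lies on chromosome 14, 55603571 to 55610030, plus strand, and shares 123 exon bases with Rnf31 on the same strand, where reads cannot be told apart by strand. Rnf31 had 82.6 ± 2.31 CPM in WT and 74.0 ± 4.51 CPM in KO libraries (SD, n = 3 each), lower in KO without overlap. Its log2 fold change was −0.16 (edgeR adjusted p = 0.250), and its part in the Irf9 values was not tested. Stat2, which encodes the partner of IRF9, overlapped between genotypes (313 to 345 against 276 to 370.4 CPM).

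Irf1, the activator at ISREs that is induced by interferon gamma and by maturation of dendritic cells, had 131, 106 and 125 CPM in WT 1, 2 and 3 and 93.5, 187 and 118 CPM in KO 1, 2 and 3. The gene lies on chromosome 11, 53770014 to 53778374, plus strand. KO 2 was the highest and KO 1 the lowest of all 6 libraries, so that the spread within KO (coefficient of variation 36.4%) exceeded that within WT (11.1%). The log2 fold change was 0.14 ± 0.24 (SE, edgeR adjusted p = 0.797), and without KO 2 it was −0.19. Mature dendritic cell genes moved with it. The 16 genes of that list, such as Ccr7, Fscn1 and Ccl22, summed to 1700, 1256 and 1509 CPM in WT 1, 2 and 3 and to 690, 2829 and 958 CPM in KO 1, 2 and 3, none was at 0 in any library, and 0 of 16 passed by edgeR (2 by DESeq2, and 2 by unadjusted p under 0.05). Without KO 2, 6 of the 16 passed, all lower in KO, and the median of the list went from 0.05 to −1.70, whereas without KO 1 2 passed, both higher. By limma-voom on all 6 libraries the median was −0.91, with 0 passed. Irf5 also had its highest value in KO 2 and its lowest in KO 1. The part of mature cells in the Irf1 and Irf5 values was not tested.

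Of 22 genes linked to interferon gamma and IRF1, 19 were tested, 2 passed lower and 1 higher. The 2 were the immunity-related GTPase genes Igtp (14.9, 14.98 and 14.6 CPM in WT 1, 2 and 3 against 7.55, 6.49 and 5.68 CPM in KO 1, 2 and 3) and Irgm2 (24.0, 20.99 and 18.2 against 12.6, 11.99 and 14.1 CPM). The gene that rose was Ciita, the master regulator of MHC class II genes, with 1065, 1039 and 1104 against 1395, 1422 and 1596 CPM (log2 fold change 0.46 ± 0.07, edgeR adjusted p = 0.0159). Of these 19, 0 passed without WT 1 or without WT 2 and 1 without WT 3. The median of the list was −0.08, and without KO 2 it was −0.44.

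Irf2, the antagonist of IRF1, had 88.7, 80.8 and 89.4 CPM in WT 1, 2 and 3 and 83.7, 89.5 and 109 CPM in KO 1, 2 and 3. The genotypes overlapped, with a log2 fold change of 0.12 ± 0.10 (SE, edgeR adjusted p = 0.556). The gene lies on chromosome 8, 46739732 to 46847458, plus strand.

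**Figure D3:**
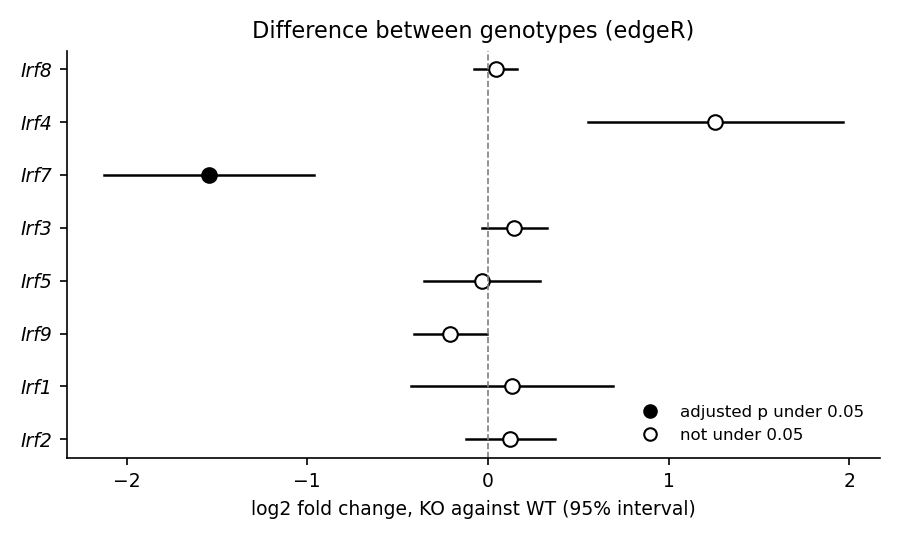
Log2 fold change of each IRF gene, KO against WT, with its 95% interval from the edgeR fit (filled where the adjusted p was under 0.05). The intervals of Irf4 (0.55 to 1.96), Irf7 (−2.13 to −0.96) and Irf9 (−0.41 to −0.01) left out 0, and only Irf7 passed after adjustment.

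Levels of different genes were compared as CPM per kilobase of exon. In WT libraries the order was Irf8 (384 ± 8.55), Irf5 (151 ± 6.76), Irf1 (30.4 ± 3.37), Irf9 (29.5 ± 1.72), Irf7 (25.04 ± 4.71), Irf3 (18.1 ± 0.738), Irf2 (11.7 ± 0.647) and Irf4 (7.04 ± 1.74, each ± SD, n = 3). Irf1, Irf9 and Irf7 overlapped with their neighbours in this order, and the others did not. In KO libraries Irf8 (396 ± 10.9), Irf5 (147 ± 30.2), Irf1 (33.4 ± 12.2) and Irf9 (25.6 ± 2.56) kept the first 4 places. Irf3 (20.0 ± 1.59), Irf4 (16.8 ± 6.84), Irf2 (12.7 ± 1.77) and Irf7 (8.59 ± 2.98) followed, each overlapping the next. Irf4 thus stood at place 6 in KO and 8 in WT libraries, and Irf7 at place 8 in KO and 5 in WT libraries. Among all tested genes of the WT libraries, Irf8 lay at the 99.2 percentile per kilobase and Irf4 at the 54.9.

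As a share of all 8 genes per kilobase, Irf8 made up 58.5% ± 0.714 in WT and 60.2% ± 3.43 in KO libraries, and Irf5 22.9% ± 1.27 and 22.2% ± 2.79 (SD, n = 3). Irf4 had 0.841, 1.00 and 1.38% in WT 1, 2 and 3 and 1.87, 2.05 and 3.70% in KO 1, 2 and 3. Irf7 had 4.48, 3.81 and 3.13% and then 1.08, 1.01 and 1.81%. Both shares separated the genotypes without overlap, in opposite directions, and the log2 ratio of Irf4 to Irf7 reads was higher by 2.79 in KO libraries. The other 6 shares overlapped.

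**Figure D4:**
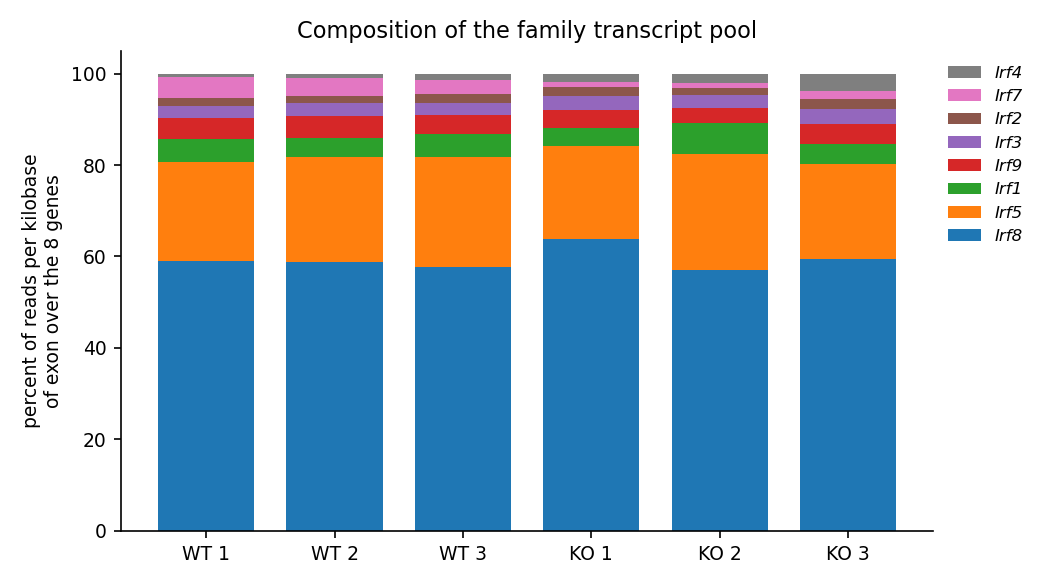
Share of each IRF gene in the reads per kilobase of exon summed over the 8 genes, by library (percent, stacked bars). Irf8 held 57.1 to 63.9% in all 6 libraries, while the top segment, Irf4, reached 3.70% in KO 3.

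The DNA-binding partners of IRF4 and IRF8 showed no call in the edgeR fit of all 6 libraries, where 3.88% of all tested genes passed. Of 12 genes, which included Batf, Batf3, Spi1, Spib and the deleted Jun and Junb, all were tested and 0 passed by edgeR. Only Junb had an unadjusted p under 0.05 (log2 fold change −1.02). By DESeq2, with no filter, with the replicate block and without KO 1, 1 of the 12 passed, lower in KO. Junb and Batf2 (−1.29, 2 to 31 reads per library) were lower and Batf (0.23) higher in KO without overlap, as 26.0% of all tested genes separated. Batf3 had 57.3, 54.0 and 52.2 CPM in WT 1, 2 and 3 and 45.2, 62.3 and 66.2 CPM in KO 1, 2 and 3 (edgeR adjusted p = 0.778). Batf had 12.6 to 13.9 CPM against 14.2 to 16.5 CPM (edgeR adjusted p = 0.317), and Spi1, which encodes PU.1, 313 to 348 against 317 to 401 CPM. The median log2 fold change of the list was 0.07.

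Of 22 cDC1 genes, all tested, 6 passed, each lower in KO (Xcr1, Tlr3, Snx22, Rab7b, Ifi205 and Ppt1), and 11 had an unadjusted p under 0.05. DESeq2 called 8 lower and 3 higher, 0 passed without WT 1 or without WT 2, 1 without WT 3, and 7 lower and 3 higher without KO 1. The fold change was above 0 for 10 of the 22, and the median, −0.07, was −0.24 without KO 2 and 0.06 without KO 1. Their sum was 13284 to 13563 CPM in WT and 10411 to 12892 CPM in KO libraries, beside an Irf8 level that overlapped. From the same RNA-Seq data the study had already named Xcr1, Tlr3, Snx22, Rab7b and Ifi205 as reduced. The count of cDC1 genes is thus a description and no independent support. Markers of plasmacytoid dendritic cells, in which IRF7 and IRF8 are abundant, summed to 117 to 123.4 CPM against 172 to 204 CPM. Of 7 tested, 5 had a log2 fold change above 0 and 2 below, with a median of 0.09. Only Ccr9 passed, higher in KO (log2 fold change 1.41 ± 0.12). Siglech had 7.79 to 10.8 CPM in WT and 16.5 to 37.5 CPM in KO libraries (edgeR adjusted p = 0.0571). Klk1 and Cox6a2 of this list were under the filter on low counts. Of 6 tested monocyte and macrophage markers, Adgre1 passed higher (20.98 to 28.5 against 38.3 to 56.0 CPM), with no call in the list without KO 3 or any 1 WT library, and Mertk and C5ar1 of the same list were under the filter, with 0 to 13 reads per library. B cell markers summed to 18.8 to 30.9 and 12.8 to 49.9 CPM, neutrophil and progenitor markers to 3.74 to 12.5 and 1.26 to 7.05 CPM (Ly6g and Elane at 0), and T and NK cell markers to 0.964 to 1.06 and 0.933 to 1.01 CPM. None of these passed by edgeR, DESeq2 or unadjusted p under 0.05. Basophil and mast cell markers, none of them tested, summed to 0.116 to 0.482 CPM in WT and reached 14.1 CPM in KO 2. The part of these cells in the IRF values was not tested.

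**Figure D5:**
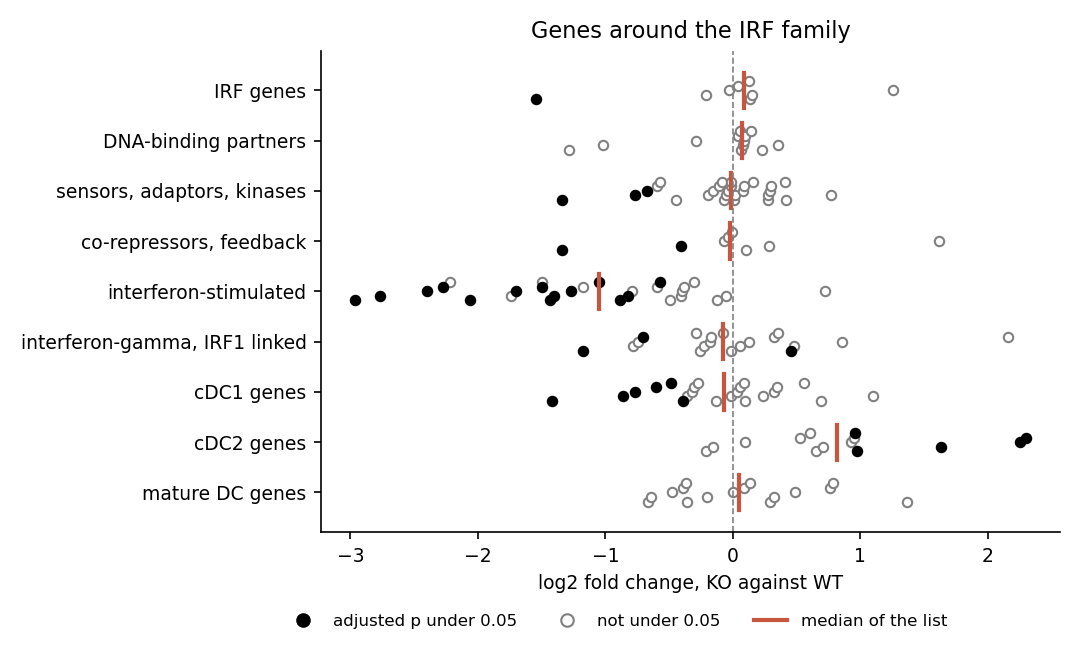
Log2 fold changes of the tested genes in 9 lists around the IRF family (points, filled where the edgeR adjusted p was under 0.05) with the median of each list (red bars). Ifi44l, which had no reads in WT libraries, is left out of the points but kept in the median. Interferon-stimulated genes had a median of −1.05 and cDC2 genes one of 0.82, while the IRF genes themselves had 0.08.

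No tested gene beside an IRF gene on its chromosome passed. Of 25 genes that overlap an IRF gene or are its nearest protein-coding neighbours, 14 were tested and 0 passed by edgeR, limma-voom or DESeq2, with 3 at an unadjusted p under 0.05 by edgeR. Beside Irf4, Dusp22 had 54.1 ± 6.78 CPM in WT and 60.1 ± 9.53 CPM in KO libraries (edgeR adjusted p = 0.580), and Exoc2 88.6 ± 1.74 and 85.8 ± 2.29 CPM (0.683). Beside Irf7, Rassf7 had 9.77 ± 1.36 and 11.2 ± 1.95 CPM (edgeR adjusted p = 0.597), and Cdhr5 had 0 reads in all 6 libraries. Beside Irf8, Cox4i1 had 302 ± 17.6 and 312 ± 7.30 CPM (0.741), and Foxf1 had 0 reads in all 6 libraries.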

How the data were processed

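Poly(A) RNA of sorted cDC1s was made into strand-specific libraries and sequenced from both ends. As the methods state, STAR 2.6.1a with Gencode vM19 placed the reads on mm10 (GRCm38), and the authors deposited the read counts per gene that STAR gave, without normalization or pooling. Only uniquely mapped reads enter such counts. RSEM is also named in the submitters' processing notes, with no role. No source at hand says which strand column was deposited, and reads shared with an overlapping gene on the other strand were not told apart. STAR's tallies of reads that were unmapped, mapped to several places, outside genes or ambiguous between genes (together 20.3 to 20.9% of all reads) were left out of library sizes and tests.

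Names and coordinates came from GENCODE M21 (53315 of 54532 identifiers in the same version, 1180 in another, 37 not found). The 6 libraries were compared in edgeR 4.0.16 (R 4.3.3) with TMM factors (0.989 to 1.01), filterByExpr (minimum count 10, minimum total 15) and glmQLFTest with genotype as the only term. The 12894 genes that were kept shared one Benjamini-Hochberg adjustment. The Irf4 to Irf8 ratio used an exact permutation test. Alternatives were DESeq2 1.42.0, its size factors, limma-voom (limma 3.58.1), no filter, a stricter filter (10 reads in 3 libraries and a mean of 1 CPM), 1 library left out, the replicate number as a term, and other scales for ratios and lengths. A count of 0 allows up to 3 reads. The binomial intervals of the Irf4 to Irf8 ratio and the limits for a count of 0 cover counting error only. PCR copies could not be recognised. The intervals of the fold changes came from the edgeR fit and also take in the variation between libraries. No pair of libraries of a genotype was alike within sampling noise, so none was counted as 1 library deposited again. The IRF genes, the gene lists and the rule for named genes were chosen with earlier results of these data known. The lists share some genes, such as Tlr3 and Ifih1. By that rule the text names all 8 IRF genes, all passed genes of a list with up to 6 of them and otherwise the 3 of each direction with the smallest p, the genes most like Irf4 and Irf8, genes on either side of an IRF gene, Jun and Junb. Some results under that rule are not reported here. Others, such as Prdm1, Siglech, Sirpa and Mavs, were named after their values had been seen. Promoter windows came from RefSeq. Python 3.11.15, pandas 2.3.3 and scipy 1.17.1 were used for these steps.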

Additional observations from a re-analysis of the deposited data

How the results depend on the processing

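Of the 96 member values recomputed, 86 kept their direction and their side of the adjusted p of 0.05. With 1 library left out the log2 fold change of Irf1 ran from −0.19 (without KO 2, where it turned) to 0.34, and that of Irf5 from −0.21 to 0.083, turning without KO 1 (0.083) and without KO 3 (0.01). Against 500 genes and 1 IRF gene (Irf7) in the edgeR fit, 1101 genes and 2 IRF genes passed by DESeq2, 762 and 2 with no filter, and 240 and 1 with a log2 fold change of at least 1. With 1 library left out 95 to 1320 genes and 0 to 2 IRF genes passed, the lowest without WT 1 or WT 2 (95 each) and the highest without KO 1. The Irf4 to Irf8 log2 difference of 1.17 ran from 0.85 to 1.40 over its alternatives. With the longest transcript in place of all exons, Irf8 made up 67.2% of the family in WT libraries in place of 58.5%. Of 191 recomputed list medians, 182 moved by less than the spread between libraries. The median of mature dendritic cell genes, 0.05, was −1.70 without KO 2. With all 6 libraries it was −0.91 by limma-voom and −0.81 with the replicate block. Both shifts lay within the spread of this list, 0.98, although the sign turned.

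Replicate numbers were not shown to pair the libraries, since same-numbered libraries deviated together with r of 0.0910, −0.148 and 0.200, and 3 of the 6 libraries (WT 2, KO 1 and KO 2) correlated better with another number. The Irf4 to Irf8 log2 ratio differed by 1.04, 1.07 and 1.38 between the libraries numbered 1, 2 and 3. The mean of these, 1.17, equals the difference of the genotype means by arithmetic and is no separate check. With the number as a replicate block 417 genes and 1 IRF gene passed by edgeR, in this case Irf4 (adjusted p = 0.00951), while Irf7 was at 0.0508. The cause of these changes was not tested. Each IRF gene had 586 reads or more in each library.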

Other observations

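Within each library, the ratio of reads was formed for all 28 pairs of IRF genes. It separated the genotypes without overlap for 16 pairs, 13 of which held Irf4 or Irf7. The other 3 all held Irf9, with Irf2, Irf3 or Irf8. There were 5.90, 6.09 and 5.59 Irf9 reads per 100 Irf8 reads in WT 1, 2 and 3 and 4.74, 4.52 and 5.54 in KO 1, 2 and 3, a log2 difference of −0.25. Each KO library lay below each WT library, although Irf9 itself overlapped between genotypes as CPM. The ratio of Irf9 to Irf3 differed by −0.35 on the log2 scale, again with no overlap. These pairs share genes and were read after their values had been seen, with no test. How often pairs of any tested genes separate was not computed. Of single tested genes, 26.0% did.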
